A study of Pomacea canaliculata with 36 samples.

Results

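In the eye stalk of *Pomacea canaliculata*, the apple snail, 86 of 21131 genes stood highest at the end of a regeneration time course, at 21 and 28 days post amputation (dpa), at levels of at least 2 times those of the intact stalk. The genes were chosen on these values. Each had a mean of at least 5 CPM (a gene's counts relative to the library total, scaled by TMM, a normalisation between libraries) at 21dpa and at 28dpa, both means at least 2 times the Intact mean and above the mean of every earlier time after amputation, and no 21dpa or 28dpa library at or below the highest Intact library. Their late level over Intact is therefore given as a description, without a test. The tests below use the steps between other time points and the step between 21dpa and 28dpa. A further test takes genes chosen anew on some of the libraries and measures them in libraries left out of that choice. A further 281 genes met the same conditions at 21dpa and 28dpa but were at least as high at an earlier time after amputation, and are not among the 86.

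Polyadenylated RNA of eye stalks was sequenced in 36 libraries, 4 for each of 9 groups. These were Intact stalks, and amputated stalks 1, 3, 6, 9, 12, 15, 21 and 28 days after amputation (1dpa to 28dpa). The labels give no genotype, strain, sex, age or agent, and amputation and the time since it are the only differences they name. Whether each library is a different animal is not stated, so a p-value here reflects only library-to-library spread, part of which may be technical. Libraries held 21797015 to 32928737 counts, and 1 CPM stood for 19.2 counts in the smallest. In bulk RNA, more cells of a type and more RNA per cell cannot be told apart, and this applies to every level below.

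The apple snail is a freshwater gastropod that carries a camera-type eye, with a cornea, a lens and a retina, at the tip of a stalk, and it regrows the eye after amputation. In such a regrowth a wound first closes, a bud of dividing cells forms, and tissues of the eye then differentiate and grow. Transcripts can return to the level of the intact organ, stay below it or pass it. The genes here passed it. The files identify them by locus numbers alone, and the gene table used here pairs these with no product names, so no function, pathway or cell type is given to any of them, and no marker of the eye or the stalk could be checked. CPM is not a level per length, so levels are compared between groups for a gene and not between genes.

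Together the 86 genes took a larger part of the RNA as the stalk regrew. Their share of a library's counts averaged 5.30 ± 1.21% in Intact, 2.96 ± 1.09% on day 1, 7.43 ± 0.663% on day 3, 9.18 ± 0.904% on day 6, 12.5 ± 1.72% on day 9, 13.9 ± 2.19% on day 12, 13.7 ± 1.38% on day 15, 17.5 ± 1.47% on day 21 and 17.8 ± 2.77% on day 28 (SD, n = 4 each). The 21dpa libraries lay between 16.2 and 19.0% and the 28dpa libraries between 14.6 and 20.8%, all above the 3.71 to 6.66% of the Intact libraries. Most of this was the pair LOC112556451 and LOC112556452, which held 15.0 ± 1.34% of the counts at 21dpa and 15.3 ± 2.42% at 28dpa, against 4.56 ± 1.15% in Intact. The other 84 genes summed to 2.49 ± 0.150% at 21dpa and 2.43 ± 0.354% at 28dpa, against 0.734 ± 0.0619% in Intact. Both the pair and the other 84 were at their lowest at 1dpa, at 2.42 ± 0.962% and 0.539 ± 0.127%.

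**Figure D1:**
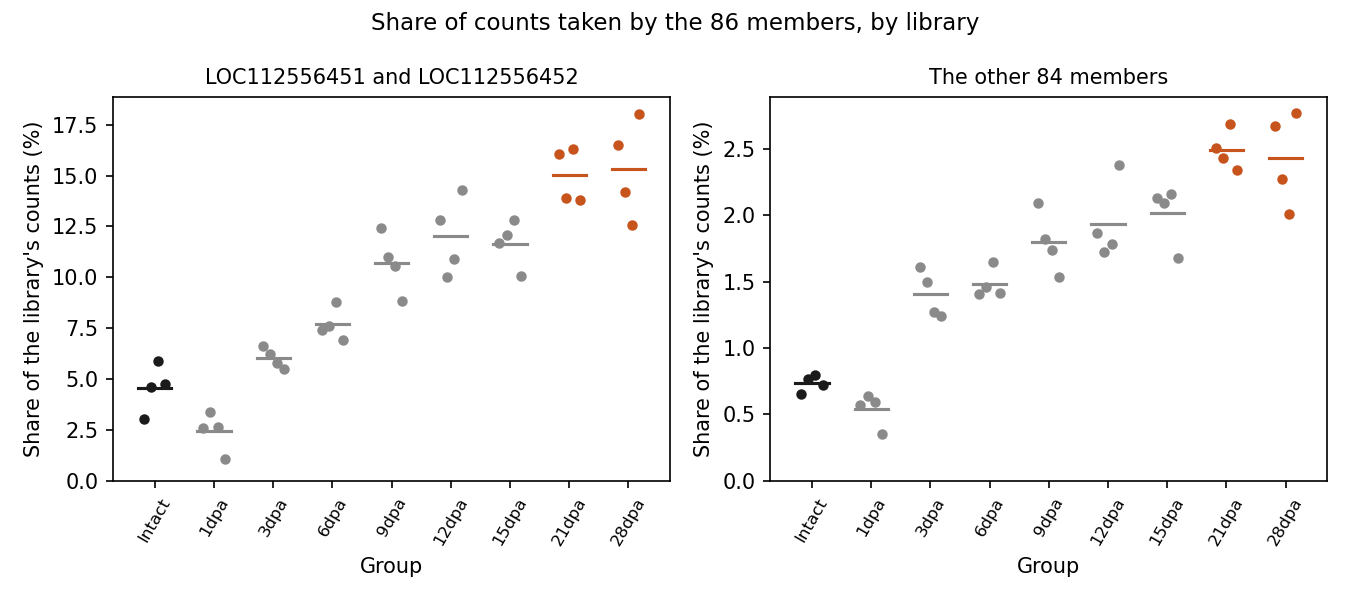
Share of each library's counts, in percent, taken by LOC112556451 and LOC112556452, and by the other 84 genes, with points for libraries and lines for the mean of 4. The share of all 86 together, not drawn, was lowest at 1dpa, 2.96%, and averaged 17.5% at 21dpa and 17.8% at 28dpa, against 5.30% in Intact.

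The pair LOC112556451 and LOC112556452 was the most abundant of the 86 genes by counts. LOC112556451 stood at 85344, 75002, 63711 and 100345 CPM in the 28dpa libraries and at 87851, 69849, 83666 and 73131 CPM in the 21dpa libraries, against 12842, 19974, 26333 and 20717 CPM in Intact. Its lowest library of all was 1dpa replicate 4, at 5979 CPM. All its libraries from 6dpa on, the lowest at 30753 CPM, were above every Intact library. LOC112556452 averaged 79177 ± 18014 CPM at 28dpa and 76935 ± 10281 CPM at 21dpa, against 23684 ± 6159.8 CPM in Intact (SD, n = 4 each), and was also above every Intact library from 6dpa on. In the tested steps, the pair rose between 1dpa and 3dpa, with a log2 fold change of 1.08 ± 0.218 (SE; adjusted p = 8.96e-05, edgeR) for LOC112556451 and 1.16 ± 0.225 (adjusted p = 5.27e-05, edgeR) for LOC112556452. No later single step up to 15dpa passed the threshold for either gene. There is 1 gene between the pair in the gene table. Whether any reads fit both genes is not known, and such reads could not be separated, so how far their values are independent is not known.

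LOC112574681, the next by counts, was at 14692, 12320.3, 10056 and 15924 CPM at 28dpa and at 14735, 12379, 15905 and 12864 CPM at 21dpa, against 1709.5, 2631, 3187 and 2409 CPM in Intact, 5.33 and 5.62 times the Intact mean. It was already above every Intact library at 3dpa, at 5941 to 8741 CPM, and rose between 1dpa and 3dpa by a log2 fold change of 1.34 ± 0.220 (SE; adjusted p = 4.93e-06, edgeR). LOC112571554 averaged 5313 ± 1587 CPM at 28dpa and 5215 ± 566 CPM at 21dpa, against 2154 ± 90.3 CPM in Intact, and its 3dpa libraries, at 3206 to 5591 CPM, overlapped the late ones. LOC112561831 likewise held a plateau, with group means between 535 and 557 CPM from 3dpa to 15dpa. It reached 596 ± 77.3 CPM on day 21 and 569.7 ± 111 CPM on day 28, against 232 ± 14.4 CPM in Intact. In each of these 3 genes the lower late mean passed the highest earlier mean by less than the SD of that earlier group. Over the 86, the lower of the late means was 1.01 to 2.64 times the highest mean of 1dpa to 15dpa, with a median of 1.36. In 11 genes, against 1.07% of the tested genes, every 21dpa and 28dpa library was above every library of 1dpa to 15dpa, a count that the choice of genes favours. They included LOC112562848, LOC112554762, LOC112574306, LOC112557200, LOC112557547, LOC112568917, LOC112555742 and LOC112555748.

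The genes varied widely in the size and the evenness of the late level. The smaller of the 21dpa and 28dpa ratios to Intact ran from 2.01 to 16.3, with a median of 2.73, and 34 genes were at 3 or more, 18 at 4 or more and 1 at 8 or more. Means at 28dpa ran from 5.10 to 81101 CPM, with 22 genes at 100 CPM or more and 43 under 20 CPM. The larger coefficient of variation of the 2 late groups was under 30% in 55 genes. The most even was LOC112574578, at 118, 122, 120.5 and 117 CPM at 28dpa and 131, 116, 130.1 and 119.8 CPM at 21dpa, against 63.8, 44.9, 43.4 and 55.3 CPM in Intact. LOC112557547, at 39.4 to 45.7 CPM at 28dpa and 38.2 to 42.8 CPM at 21dpa against 15.4 to 22.2 CPM in Intact, and LOC112568917, at 18.8 to 21.8 CPM and 17.3 to 22.3 CPM against 6.71 to 10.5 CPM, were nearly as even. LOC112555742, at 35.6 to 44.1 CPM at 28dpa and 33.0 to 43.4 CPM at 21dpa, against 11.3 to 14.7 CPM in Intact, kept its late libraries above the highest earlier one, 28.9 CPM at 15dpa.

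Of the 8 genes with the largest ratios, LOC112574681 was abundant in the intact stalk and even in the late groups, with a larger late coefficient of variation of 19.6%. The other 7 averaged 0.359 to 11.5 CPM in Intact, and their larger late coefficients of variation were 34.1 to 137%, against a median of 26.0% over the 86. LOC112553276 was at 8.25, 1.26, 1.92 and 12.0 CPM at 28dpa and 11.2, 7.59, 7.74 and 4.27 CPM at 21dpa, against 0.349, 0.369, 0.570 and 0.147 CPM in Intact. Replicates 2 and 3 of 28dpa were thus far below replicates 1 and 4, though still above Intact, and lay below its 4.64 to 6.68 CPM at 15dpa. LOC112574909 was at 16.5, 5.81, 4.84 and 11.8 CPM at 28dpa and 10.9, 14.0, 2.50 and 1.89 CPM at 21dpa, against 0.922 to 1.24 CPM in Intact. LOC112567577 was more even, at 6.39 to 10.5 CPM at 28dpa and 5.21 to 10.9 CPM at 21dpa, against 0.220 to 2.21 CPM in Intact. LOC112572069 rested at 28dpa on replicate 1, at 30.1 CPM, while the other libraries were at 3.54, 2.48 and 3.36 CPM, against 1.23 to 2.13 CPM in Intact.

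LOC112554533 and LOC112557863 had all libraries above Intact at 6dpa and 9dpa, no longer did at 15dpa, and did again at 21dpa and 28dpa. LOC112554533 was at 12.0, 19.4, 7.24 and 3.48 CPM at 28dpa and 12.3, 14.1, 11.5 and 2.83 CPM at 21dpa, against 1.44, 1.48, 1.27 and 1.39 CPM in Intact. Its 15dpa libraries, at 0.663 to 1.67 CPM, lay on both sides of the Intact range. Before that, all its libraries had been above Intact on day 6, at 1.54 to 4.86 CPM, and on day 9, at 2.35 to 7.76 CPM. LOC112557863 was at 4.40 to 11.8 CPM at 28dpa and 6.32 to 22.5 CPM at 21dpa, against 1.10 to 1.81 CPM in Intact and 1.14 to 1.77 CPM at 15dpa. All its libraries had been above Intact on each sampled day up to day 9, at 2.50 to 3.26 CPM on day 1 and 2.69 to 5.47 CPM on day 9. In both genes replicate 4 was the lowest library at 21dpa and at 28dpa. Replicates of a number were not shown to be paired across groups.

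**Figure D2:**
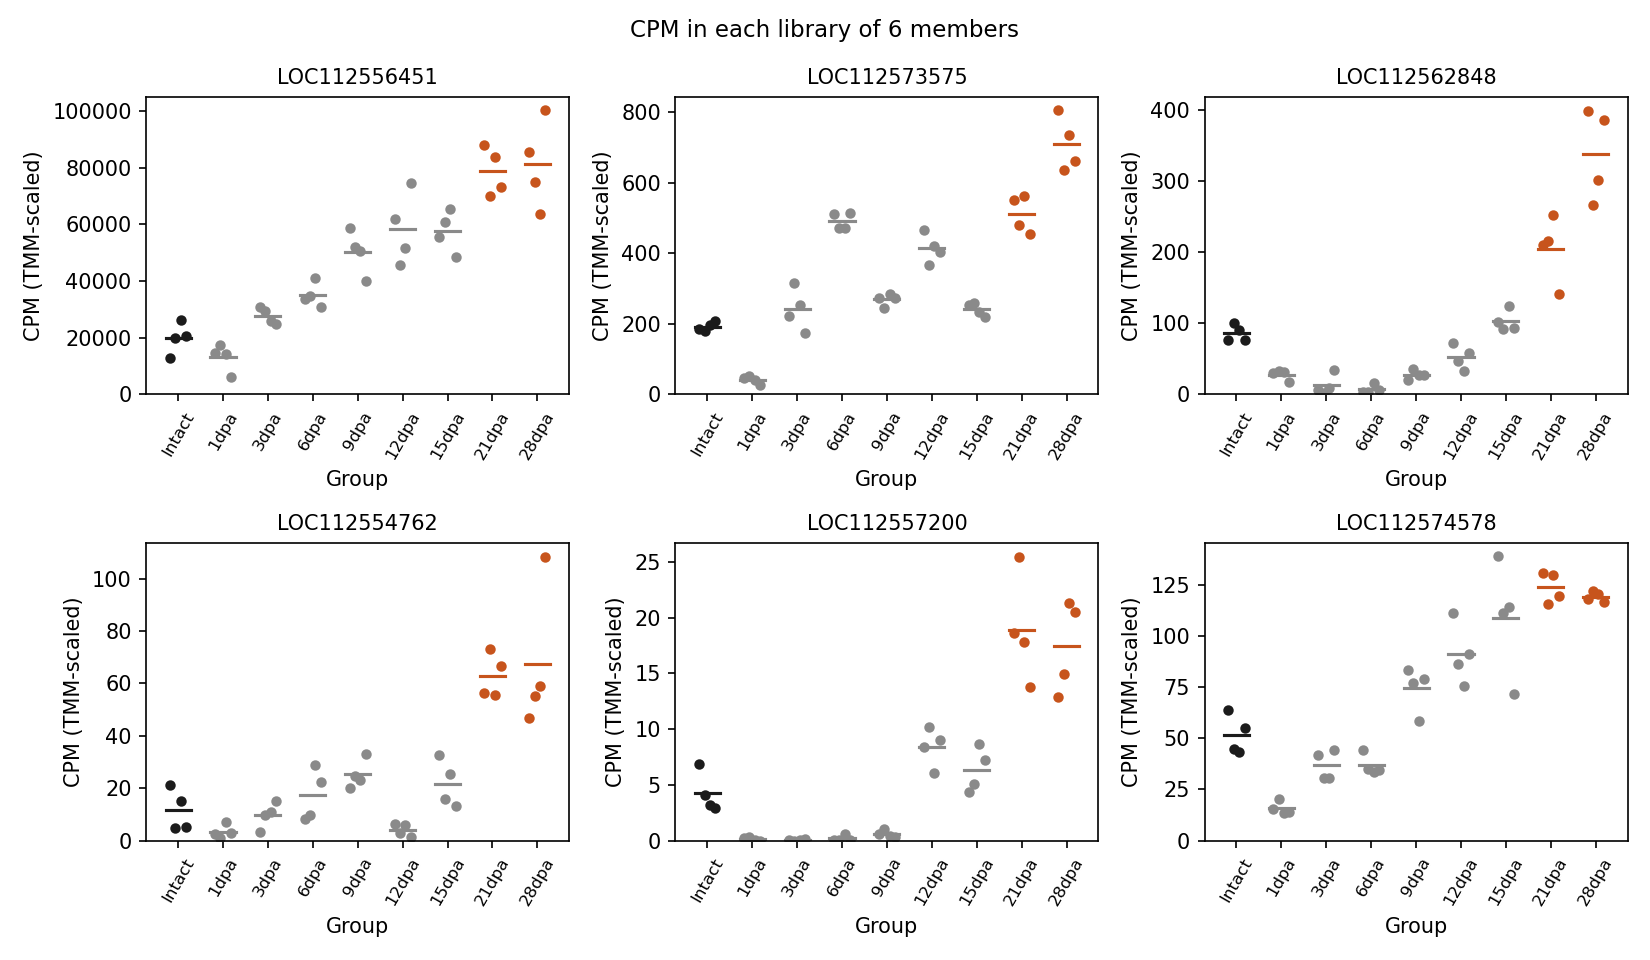
CPM (TMM-scaled) in each library of 6 of the genes by group, with points for libraries and lines for the mean of 4. Each panel has its own axis from 0, and the late libraries of every panel lie above all Intact libraries, by the choice of the genes.

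The 2-fold condition fell within a dense part of the distribution. Just inside it were LOC112557357, LOC112556080 and LOC112576130, whose smaller late ratios to Intact were 2.01, 2.04 and 2.06. Just outside were LOC112557771, LOC112557909 and LOC112566923, at 1.998, 1.997 and 1.994. In all, 9 of the 86 were within 5% above the condition and 12 genes that met every other condition were within 5% below it.

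The late level was reached unevenly, with a lower median at 12dpa than at 9dpa. The median ratio of the 86 genes to Intact was 0.657 on day 1, 0.853 on day 3, 1.22 on day 6, 1.58 on day 9, 1.12 on day 12, 1.91 on day 15, 2.85 on day 21 and 3.03 on day 28, where that of all 17343 tested genes stayed between 0.986 and 1.03. These ratios share the Intact libraries, which the choice of genes used. At 1dpa, 35 of the 86 had all libraries below the lowest Intact library and 4 had all above the highest, against 34.6% and 34.8% of the tested genes. The 1dpa share below is 40.7% of the 86, which is near that background. The mean was below Intact at 1dpa in 60 of the 86, against 50.1% of the tested genes. Some genes stood far below Intact. LOC112557200 was at 0 to 0.323 CPM at 1dpa against 2.97 to 6.90 CPM in Intact, LOC112574306 at 2.81 to 5.66 CPM against 24.6 to 45.5 CPM, and LOC112573951 at 7.88 to 11.4 CPM against 59.8 to 82.8 CPM, without overlap in any of them. The exceptions above Intact at 1dpa were LOC112575351, LOC112559453, LOC112572069 and LOC112557863, named because they were so few, after their values had been seen.

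From 6dpa on the genes with all libraries above Intact outnumbered those with all below. They were 12 on day 3, 18 on day 6, 32 on day 9, 26 on day 12 and 42 on day 15, where 28.7%, 28.0%, 21.8%, 24.5% and 20.7% of the tested genes were. Those with all libraries below Intact were 15, 9, 2, 6 and 0, where 28.9%, 23.2%, 19.0%, 25.1% and 20.4% of the tested genes were. At 21dpa and 28dpa it was all 86 by the choice of genes, where 18.3% and 14.1% of the tested genes were. Of the 86, 6 were above every Intact library at each time from 3dpa on, 4 from 6dpa, 8 from 9dpa, 6 from 12dpa, 18 from 15dpa and 44 only from 21dpa. The choice puts every gene in such a class, with 21dpa as the latest. The shares of the tested genes in these classes were not computed. The genes above from 3dpa on included LOC112574681, LOC112571554, LOC112561831 and LOC112561325. The highest mean before 21dpa was that of 15dpa in 48 genes, 9dpa in 16, 12dpa in 11, 6dpa in 8, 1dpa in 2 and 3dpa in 1.

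**Figure D3:**
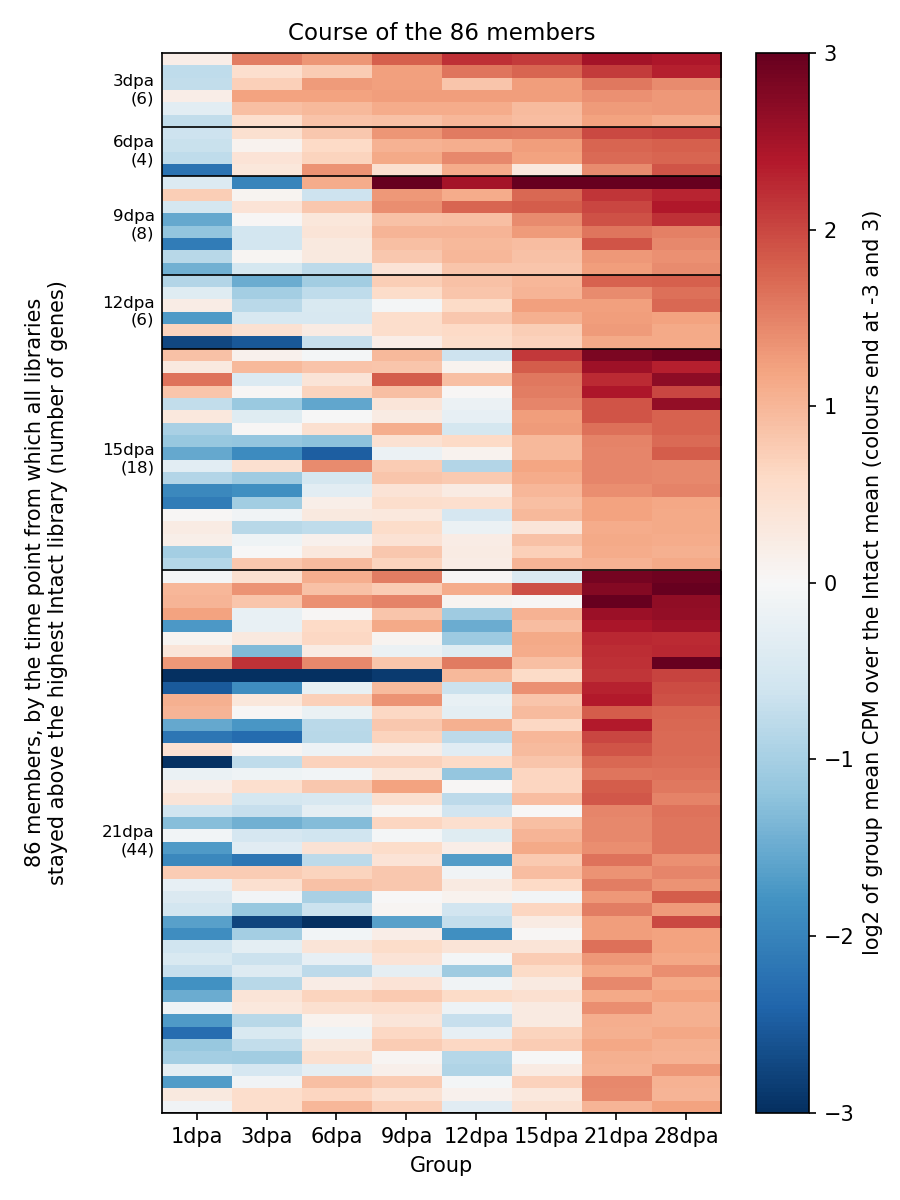
Group mean over the Intact mean, on the log2 scale, for each of the 86 genes (rows) at 8 times after amputation, with rows grouped by the time from which all libraries stayed above the highest Intact library. The largest group, 44 genes, stayed above Intact only from 21dpa, the latest time that the choice of genes allows.

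Neighbouring time points from 1dpa to 15dpa were then tested to ask in which steps the genes moved (edgeR quasi-likelihood test, adjusted p below 0.05 over 17343 genes; all 86 passed the filter on low counts). The choice of genes holds each of these groups below the late ones and sets no direction between any 2 of them. It does make every course end above where it began, which can favour rises on the way. The tested genes given beside the 86 are under no such condition, so an excess of rises is in part built in. Between 1dpa and 3dpa, 28 of the 86 rose and 7 fell, against 26.2% and 29.3% of the tested genes (55.5% in either direction). Between 3dpa and 6dpa, 19 rose and 0 fell, against 16.4% and 13.7% (30.1% in either). Between 6dpa and 9dpa, 23 rose and 1 fell, against 9.48% and 10.1% (19.6% in either). Between 12dpa and 15dpa, 36 rose and 1 fell, against 12.8% and 14.9% (27.7% in either). The step between 9dpa and 12dpa ran the other way, with 3 that rose and 22 that fell, against 15.6% and 13.1% (28.7% in either). The median log2 fold change of the 86 was 0.30, 0.35, 0.48, -0.38 and 0.62 in the order of time, where that of the tested genes was between -0.01 and 0.00 in each step. Neighbouring steps share a group, so a low 12dpa value enters both of the last 2. Leaving out any of 3dpa replicate 2, 3dpa replicate 3, 6dpa replicate 2 and 6dpa replicate 4 lowered the 19 calls of the second step to between 10 and 12. Leaving out 9dpa replicate 3 lowered the 25 calls of the step to 12dpa to 16, with 2 rises and 14 falls.

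**Figure D4:**
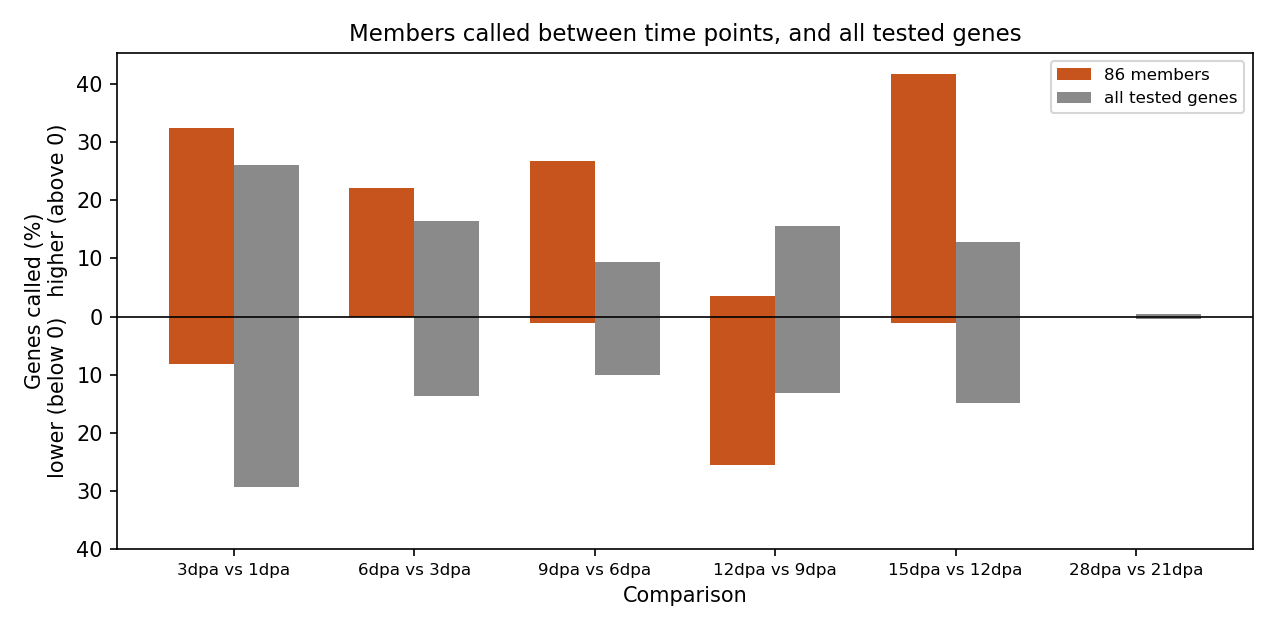
Percent of the 86 genes and of all tested genes called higher (above 0) or lower (below 0) at the later of 2 time points, for 6 pairs. Calls among the 86 were mostly rises except between 9dpa and 12dpa, with 3 rises and 22 falls, and 0 were called between 21dpa and 28dpa.

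The first step, between 1dpa and 3dpa, brought some genes back from their low point. LOC112573575 was at 223, 315, 252 and 175 CPM at 3dpa against 46.6, 50.7, 41.8 and 27.5 CPM at 1dpa, for a log2 fold change of 2.53 ± 0.145 (SE; adjusted p = 5.81e-15, edgeR). LOC112574306 was at 15.7 to 29.5 CPM at 3dpa against 2.81 to 5.66 CPM at 1dpa, 2.18 ± 0.262 (adjusted p = 2.43e-08, edgeR). Falls in this step included LOC112555778, at 0.386 to 1.68 CPM at 3dpa against 1.87 to 4.21 CPM at 1dpa, -2.03 ± 0.513 (adjusted p = 0.00118, edgeR). LOC112562848 was at 5.63, 2.59, 8.28 and 34.8 CPM at 3dpa against 17.1 to 32.7 CPM at 1dpa, groups that overlap through 3dpa replicate 4, above every 1dpa library. Its call (-1.11 ± 0.468, adjusted p = 0.0449, edgeR) was lost in 10 of 16 alternative fits, with adjusted p up to 0.198. Scaled by library size alone, 34 of the 86 rose and 3 fell in this step.

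LOC112562848 had its low point at 6dpa. It averaged 86.1 ± 11.6 CPM in Intact, 27.8 ± 7.20 CPM on day 1, 12.8 ± 14.8 CPM on day 3, 7.27 ± 6.18 CPM on day 6, 27.8 ± 6.06 CPM on day 9, 52.4 ± 16.8 CPM on day 12, 103 ± 15.0 CPM on day 15, 205 ± 46.6 CPM on day 21 and 338 ± 64.5 CPM on day 28 (SD, n = 4 each). Only the step between 6dpa and 9dpa, 1.92 ± 0.484 (SE; adjusted p = 0.00579, edgeR), was a called rise. LOC112575209 took a similar course, with 1.91 ± 1.74 CPM at 6dpa and 37.3 ± 5.77 CPM at 28dpa, against 10.6 ± 2.44 CPM in Intact. It was at 9.12, 12.1, 9.37 and 7.19 CPM at 9dpa against 0.643, 0.802, 4.41 and 1.79 CPM at 6dpa, a rise of 2.26 ± 0.471 (adjusted p = 0.00105, edgeR). In both genes 3dpa replicate 4 and 6dpa replicate 3 were the highest libraries of their groups.

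LOC112573951 was at 33.3 to 53.7 CPM at 6dpa against 6.29 to 16.5 CPM at 3dpa, for a log2 fold change of 1.85 ± 0.223 (SE; adjusted p = 1.28e-07, edgeR). LOC112553276 was at 0.546, 0.878, 0.513 and 1.17 CPM at 6dpa against 0.154, 0.0763, 0.0652 and 0.0685 CPM at 3dpa, 3.05 ± 1.05 (adjusted p = 0.0261, edgeR). That call rested on few counts and was lost without replicate 2, 3 or 4 of 3dpa or replicate 4 of 6dpa, with adjusted p up to 0.0814. It rose again in the next step, to 2.27 to 4.14 CPM at 9dpa, 1.95 ± 0.521 (adjusted p = 0.00790, edgeR). The abundant LOC112554080 averaged 166 ± 11.9 CPM in Intact, 73.3 ± 7.01 CPM on day 1, 114 ± 27.6 CPM on day 3, 216 ± 53.2 CPM on day 6, 334 ± 38.8 CPM on day 9, 334 ± 80.9 CPM on day 12, 402 ± 54.5 CPM on day 15, 501 ± 82.0 CPM on day 21 and 477 ± 74.8 CPM on day 28.

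At 12dpa many of the genes dipped, but not all. The 12dpa mean was below both the 9dpa and the 15dpa mean in 54 of the 86, which is 62.8%, against 39.2% of the tested genes. It was above both in 13 of the 86, LOC112556451, LOC112556452 and LOC112574681 among them, and that share of the tested genes was not computed. The summed share of counts did not dip, at 12.5% on day 9 and 13.9% on day 12. Every 12dpa library was below every 9dpa and 15dpa library in 11 of the 86, which is 12.8%, against 6.43% of the tested genes. LOC112554762 was at 6.46, 2.94, 5.87 and 1.19 CPM at 12dpa against 20.2, 24.7, 23.2 and 32.9 CPM at 9dpa, for a log2 fold change of -2.62 ± 0.524 (SE; adjusted p = 0.000361, edgeR). It then stood at 13.3 to 32.6 CPM on day 15, 55.5 to 73.1 CPM on day 21 and 46.6 to 108 CPM on day 28, against 4.98 to 21.1 CPM in Intact. LOC112554272 was at 1.77, 1.25, 0.961 and 1.03 CPM at 12dpa against 3.80, 3.05, 7.20 and 7.09 CPM at 9dpa, -2.07 ± 0.439 (adjusted p = 0.000623, edgeR). Its 15dpa libraries, at 5.59, 4.59, 9.71 and 7.70 CPM, were all above those of 12dpa, a rise of 2.45 ± 0.430 (adjusted p = 0.000114, edgeR). LOC112567577 was at 2.24 to 8.04 CPM at 15dpa against 0.178 to 1.05 CPM at 12dpa, 2.77 ± 0.511 (adjusted p = 0.000197, edgeR). LOC112562218, among the 10 genes of highest mean at 28dpa, averaged 246 ± 171 CPM on day 9, 79.1 ± 45.1 CPM on day 12 and 330.0 ± 38.7 CPM on day 15.

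The genes that rose between 9dpa and 12dpa were LOC112557200, LOC112572615 and LOC112573575. LOC112557200 was at 8.40, 10.2, 6.05 and 9.04 CPM at 12dpa against 0.587, 1.02, 0.412 and 0.328 CPM at 9dpa, 3.86 ± 0.376 (SE; adjusted p = 1.79e-09, edgeR), and from 1dpa to 9dpa no library of it was above 1.02 CPM. LOC112572615 was at 47.0 to 57.8 CPM at 12dpa against 21.2 to 44.4 CPM at 9dpa, 0.64 ± 0.226 (adjusted p = 0.0317, edgeR), a call that was lost without replicate 3 or 4 of 9dpa or replicate 1 or 4 of 12dpa, with adjusted p up to 0.112. LOC112573575 went up and down by turns. Its means were 192 ± 13.2 CPM in Intact, 41.6 ± 10.1 CPM on day 1, 241 ± 58.6 CPM on day 3, 491 ± 24.0 CPM on day 6, 269 ± 16.9 CPM on day 9, 413 ± 41.3 CPM on day 12, 241 ± 18.3 CPM on day 15, 511 ± 53.0 CPM on day 21 and 709 ± 76.4 CPM on day 28 (SD, n = 4 each). All 5 of its steps from 1dpa to 15dpa were called, as rises between 1dpa and 3dpa, 3dpa and 6dpa (1.03 ± 0.136, adjusted p = 6.41e-07, edgeR) and 9dpa and 12dpa (0.62 ± 0.135, adjusted p = 0.000816), and as falls between 6dpa and 9dpa (-0.87 ± 0.136, adjusted p = 3.08e-05) and 12dpa and 15dpa (-0.78 ± 0.136, adjusted p = 9.73e-05). It was the 1 gene of the 86 that fell in either of those steps, and its 9dpa libraries, at 245 to 284 CPM, did not overlap those of 6dpa, at 470.2 to 514 CPM.

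Side by side with the 86 stand the 281 genes raised at 21dpa and 28dpa but at least as high before. Of these, 156 rose and 79 fell between 1dpa and 3dpa, against 26.2% and 29.3% of the tested genes. Between 3dpa and 6dpa, 32 rose and 125 fell, against 16.4% and 13.7%. From 6dpa to 9dpa it was 20 and 27, against 9.48% and 10.1%, which is near that background. From 9dpa to 12dpa it was 45 and 25, against 15.6% and 13.1%. From 12dpa to 15dpa it was 22 and 62, against 12.8% and 14.9%. The difference between the groups of genes follows in part from how they were chosen and was not tested.

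Between 21dpa and 28dpa no further change was called in the 86. The choice sets a floor under both groups and no direction between them. A floor under both can keep out genes that differ strongly between the 2 times. Of the 86, 0 rose and 0 fell (edgeR, adjusted p below 0.05), against 0.484% and 0.386% of the tested genes (0.871% in either direction). For 86 genes, 0 calls is near that background. An unadjusted p below 0.05 was seen in 5 of the 86, against 12.0% of the tested genes, and DESeq2 called 1, against 2.32% of the genes to which it gave an adjusted p. The log2 fold changes of 28dpa over 21dpa lay between -0.64 and 0.88 with a median of -0.01, and 42 of the 86 had the higher mean at 28dpa. The standard errors were 0.131 to 0.587, and the approximate 95% interval lay within 2-fold either way in 67 genes and reached past 2-fold in 19. The gene called by DESeq2 was LOC112573575, at 805, 636, 734 and 660.5 CPM at 28dpa against 551, 478, 561 and 454 CPM at 21dpa, without overlap. Its log2 fold change was 0.47 ± 0.135 (SE; adjusted p = 0.0830) by edgeR and 0.48 ± 0.139 (adjusted p = 0.0337) by DESeq2. In 82 of the 86, which is 95.3%, the libraries of the late groups overlapped, against 93.8% of the tested genes.

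Within the late groups some libraries held more of the genes than others. At 28dpa, replicate 4 was the highest library in 42 of the 86 genes and replicate 3 in 6, where they were highest in 22.6% and 22.5% of the tested genes. LOC112561091, for example, was at 989.7 CPM in replicate 4 and 546 CPM in replicate 3 of 28dpa, and LOC112573987 at 138 and 57.0 CPM. At 21dpa the highest library was replicate 3 in 27 genes, replicate 2 in 24, replicate 1 in 21 and replicate 4 in 14. In the same order, these were highest in 26.7%, 23.8%, 26.9% and 22.7% of the tested genes. In Intact, replicate 1 was the highest in 36 genes and replicate 4 in 6, where 34.3% and 21.6% of the tested genes were. What set these libraries apart was not tested.

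Whether the late level holds in libraries that did not choose the genes was asked by splitting the replicates. The same conditions applied to replicates 1 and 2 alone chose 104 genes, 61 of them among the 86, and replicates 3 and 4 were then tested alone over 17438 genes. Of the 104, 64 were higher at 21dpa than in Intact and 50 at 28dpa, with 0 lower at either time (edgeR, adjusted p below 0.05), against 13.9% and 6.22% of the tested genes called higher. At 15dpa, which the choice also bounds, 25 of the 104 were higher and 0 lower, against 15.7% of the tested genes called higher. The median log2 fold change of the 104 was 0.79 at 15dpa, 1.35 at 21dpa and 1.43 at 28dpa, where that of the tested genes was 0.06, 0.06 and 0.02. It was above 0 in 97 of the 104 at 21dpa and in 100 at 28dpa. The 3 comparisons share their Intact libraries, and the counts at 15dpa, 21dpa and 28dpa were 9, 27 and 13 without Intact replicate 4 and 14, 36 and 26 without Intact replicate 3. They were 12 at 15dpa without 15dpa replicate 3, 40 at 21dpa without 21dpa replicate 4 and 18 at 28dpa without 28dpa replicate 4.

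Of the 104 genes, 65 repeated at least a 2-fold ratio to Intact at both late times without overlap in replicates 3 and 4, against 5.11% of the tested genes. In 49 every condition of the choice was met again, the highest level at 21dpa and 28dpa included, against 0.608% of the tested genes. The smaller late ratio of the 104 had a median of 2.39 in replicates 3 and 4. With 2 libraries a group the test can miss changes of this size. In simulated data for 28dpa and Intact replicates 3 and 4, over 17328 genes, the test recovered 71% of genes with a 2-fold change and 96% of genes with a 4-fold change. The changed genes there were drawn at random from those with a mean of at least 5 CPM, not from the 104. Why some of the 104 were not called was not tested.

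**Figure D5:**
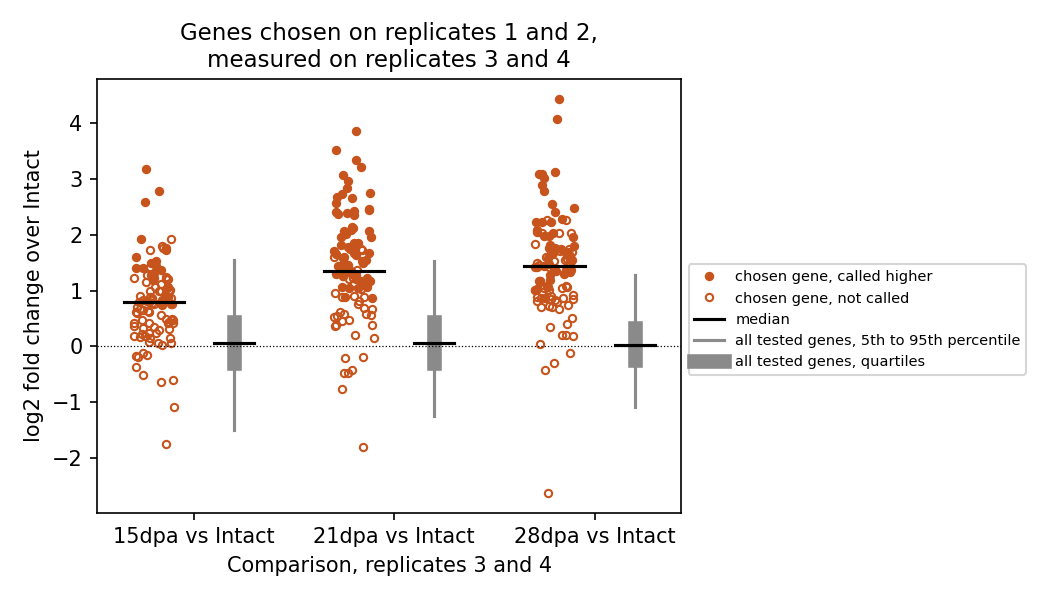
Log2 fold change over Intact in replicates 3 and 4 of the 104 genes chosen on replicates 1 and 2 (points, filled where called higher by edgeR; black lines are medians), beside the spread of all tested genes (grey). The medians of the chosen genes were 0.79 at 15dpa, 1.35 at 21dpa and 1.43 at 28dpa, where those of the tested genes were between 0.02 and 0.06.

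Some of the 86 genes lie next to each other in the gene table. With no other protein-coding gene between, 17 of them formed 8 runs, and allowing up to 2 genes between, 25 formed 10 runs. The longest was LOC112555748, LOC112555529 and LOC112555741, and with genes between it grew to 5 by LOC112555742 and LOC112555739. LOC112555748 was at 5.13 to 6.43 CPM at 28dpa and 5.25 to 8.38 CPM at 21dpa, against 1.51 to 2.19 CPM in Intact. LOC112555529 averaged 21.0 ± 1.98 CPM at 28dpa and 22.4 ± 4.52 CPM at 21dpa, against 6.32 ± 2.11 CPM in Intact (SD, n = 4 each), and LOC112555741 was at 11.9 to 18.2 CPM and 15.0 to 27.0 CPM against 3.12 to 7.42 CPM. In the order named, the 3 averaged 3.46, 12.1 and 10.1 CPM at 15dpa, against 1.40, 5.14 and 3.10 CPM at 12dpa. Other neighbours were LOC112561325 with LOC112571554, LOC112561091 with LOC112573987, LOC112574578 with LOC112573951, and LOC112554272 with LOC112554273. Neighbouring genes may be copies of each other, and overlapping or near-identical genes can share reads, so runs do not count as separate genes for certain. Runs among as many other genes were not counted, so whether these numbers are high is not known.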

How the data were processed

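Polyadenylated RNA of eye stalks was extracted with Trizol, per the labels' protocols, and the group and replicate number of each of the 36 libraries were read from its label. The series' design text has a day 7 group where the labels have day 6, and the labels were followed. As deposited by the authors, the data are 1 table of unnormalised counts, a whole number of reads for each gene and library. STAR is the aligner per the submitters' processing notes. The sources used here do not name its version, the genome build, the annotation or the strand setting, so reads of overlapping or near-identical genes cannot be separated. All 86 genes were matched to RefSeq's genes of assembly ASM307304v1, a table used only for the order of genes.

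The 86 genes, the named genes and the comparisons were chosen with earlier results of these data known. The analysis ran edgeR 4.0.16 and limma 3.58.1 under R 4.3.3. CPM used TMM factors from the 19622 genes with summed counts of 10 or more, and group means were taken over 4 libraries. filterByExpr left 17343 genes, and 615 of the 21131 had no count. A single robust quasi-likelihood fit (glmQLFit) took all 36 libraries with the group as its only term, and 6 pairs of time points were tested, 2-sided, with Benjamini-Hochberg adjustment over all tested genes and a threshold of 0.05. For the split of the replicates, the conditions were applied anew to replicates 1 and 2 and the model was fitted to replicates 3 and 4. Standard errors were derived from the F statistic, and approximate 95% intervals from them.

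Named were the 10 genes of highest mean at 28dpa, the 8 of largest smaller late ratio to Intact, the 5 of smallest late coefficient of variation, up to 2 higher and 2 lower of largest log2 fold change in each tested step, 3 genes on either side of the 2-fold condition, and the largest runs of neighbours. Of 54 pairs of libraries within groups, the lowest chi-square per degree of freedom was 9.78, so none were counted as 1 library. Since 1 CPM was 19.2 counts in the library of least depth, counting error is appreciable at a few CPM.

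Recovery was checked on simulated counts in which 200 genes were changed. For 28dpa and 21dpa, over 17264 genes, 89% of 2-fold and 99% of 4-fold changes were recovered with 19 false calls. For 15dpa and 12dpa, over 17247 genes, it was 90% and 98% with 23 false calls. Alternatives were RLE size factors, library size alone, TMM factors of the tested genes (added after the data were seen for the steps), other count filters, DESeq2 1.42.0, fits of only the compared groups, the replicate number as a block, other thresholds of the choice, and each library left out in turn.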

Additional observations from a re-analysis of the deposited data

Results flagged for a closer look

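Of 117 sets of 4 libraries looked at among the 36 named genes and the shares of counts, 1 held a library far from the others, where chance gives about 1 in 20. These sets did not cover every group of every named gene, and groups outside them can also hold such a library. At 12dpa, LOC112562218 was at 147 CPM in replicate 3 and at 54.0 to 59.6 CPM in the others. LOC112572069 was at 30.1 CPM in 28dpa replicate 1, and the other 28dpa libraries lay between 2.48 and 3.54 CPM, which was still above the 1.23 to 2.13 CPM of the Intact libraries. Its 28dpa mean of 9.87 CPM therefore rests on that library. The cause was not tested.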

How the results depend on the processing

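The number of genes meeting the conditions was 90 with RLE size factors, 62 with library size alone, 91 with TMM factors of the tested genes, 89 without the 12dpa libraries and 109 without the condition on overlap. The first 4 of these choices held 86, 62, 85 and 86 of the 86 genes. It was 179 at 1.5-fold, 34 at 3-fold and 141 at a mean of 1 CPM, and 80 to 97 with 1 library left out, and 56 of the 86 were chosen in each of those 36 fits.

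With 1 library left out, the genes called were 30 to 39 between 1dpa and 3dpa, 10 to 21 between 3dpa and 6dpa (35 and 19 with all libraries), 16 to 29 between 6dpa and 9dpa (24), 16 to 26 between 9dpa and 12dpa (25), 28 to 36 between 12dpa and 15dpa (37) and 0 between 21dpa and 28dpa, where DESeq2 called 1. The lowest counts came without 6dpa replicate 4 between 3dpa and 6dpa and without 9dpa replicate 3 between 9dpa and 12dpa. Of 16 named calls, 13 held under every alternative run, and the other 3 are given with the genes. Further called steps given above for single genes, such as those of LOC112556451, LOC112556452 and LOC112574681 between 1dpa and 3dpa, were not followed through the alternatives.

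Of the genes chosen on replicates 1 and 2, those called higher with 1 library left out were 9 to 19 at 15dpa, 27 to 46 at 21dpa and 13 to 37 at 28dpa, lowest without Intact replicate 4, and 57 to 71 repeated the 2-fold ratio. These fits leave 1 library in a group, which is assumed to vary like the rest, and with fewer samples fewer genes pass. With library size alone 77 genes were chosen, and 12, 39 and 33 were called at the 3 times. With the choice on replicates 3 and 4, 40, 61 and 61 of 106 were called. The cause of these shifts was not tested.

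Library size alone moved the median log2 ratio of the tested genes to Intact to -0.24 at 1dpa, from -0.00, and to -0.12 at 28dpa, from -0.00, and that of the 86 to 1.48 at 28dpa, from 1.60. The share of calls that were rises, over all tested genes, became 63.9% (47.2% by TMM) from 1dpa to 3dpa, 66.4% (54.4%) from 3dpa to 6dpa, 38.7% (54.3%) from 9dpa to 12dpa and 60.8% (46.2%) from 12dpa to 15dpa. Among the 86 it became 91.9% (80%) from 1dpa to 3dpa.

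Libraries of the same replicate number shared no deviation that would pair them, with correlations of -0.217 to 0.160. With the replicate block the genes called in the 6 pairs were 34, 14, 26, 26, 37 and 0, and 23, 64 and 49 of the 104 were called at 15dpa, 21dpa and 28dpa, all within 1.5 times of the values without it. Genes of few CPM, such as LOC112553276 before 9dpa, are limited by depth.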
